A study of Macaca mulatta with 45 samples.

Results

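P2RY12 and SELPLG are surface molecules of brain microglia, and both are commonly read as genes of the homeostatic (resting, surveying) state. They are 2 of the 30246 genes counted by RNA-seq in brain tissue of rhesus macaques, as ENSMMUG00000001105 (P2RY12) and ENSMMUG00000031572 (SELPLG). They were chosen by symbol, with values of these libraries known: P2RY12 was lower than control in all 3 brain regions after fractionated whole-brain irradiation (fWBI), and SELPLG was lower in 2 of them. Those differences are therefore described below without a test. Tests are given for total body irradiation (TBI), for brain regions in control and TBI animals, and for other genes.

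The 45 libraries came from 15 animals, each sampled in hippocampus, dorsolateral prefrontal cortex (Brodmann area 46) and white matter (centrum semiovale). Each of the 9 groups of treatment by region held 5 animals. Control animals were not unirradiated: they had received 10 Gy to the thorax, with a labelled brain dose of 0.1 Gy. TBI animals had received 1 exposure of the whole body, 6.75 Gy in animals 1 and 2, 7.2 Gy in animals 3 and 4 and 8.05 Gy in animal 5, and were studied 6 to 9 years later. fWBI animals had received 40 Gy to the brain as 8 fractions of 5 Gy and were studied 12 months later. Dose, schedule, irradiated volume and time since exposure differ together between the treatments, so their parts cannot be told apart. The libraries were of bulk tissue, in which fewer cells of a type and less RNA per cell cannot be told apart.

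P2RY12 encodes a G protein-coupled receptor for ADP that signals through Gi. In the brain it is found mainly on microglia, whose processes it directs towards nucleotides released at sites of injury, and outside the brain it is the platelet receptor blocked by clopidogrel. SELPLG encodes PSGL-1, a mucin-like glycoprotein that binds P-selectin and tethers leukocytes to endothelium. Microglia also transcribe it, and both transcripts are known to fall when microglia leave the homeostatic state.

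Library totals were between 6625435 and 12541507 counts. P2RY12 had 109 to 1658 counts per library and SELPLG 27 to 1067, so counting error weighs most on SELPLG in fWBI prefrontal cortex, where libraries held 27 to 43 counts. The tissue labels matched their markers with a qualification in white matter. The summed level of 13 neuronal genes was 6996 to 10742 CPM (a gene's count scaled to its library's TMM-normalised total) in hippocampus and prefrontal cortex, and 304 to 821 CPM in white matter of TBI and fWBI animals. In control white matter it ran from 393 to 7937 CPM, with animals 1 and 3 high, so the main values for white matter are also given without those libraries. Markers of lymphocytes were low: 5 T cell genes summed to between 1.29 and 19.1 CPM and 3 B cell genes to at most 1.69 CPM. Of 6 platelet genes, which summed to between 108 and 340 CPM, TUBB1 held most (91.3 to 334 CPM), and GP9 or GP1BA was at 0 in every library of 7 of the 9 groups. Of 4 neutrophil and monocyte genes VCAN, which oligodendrocyte precursors also transcribe, held most, and it fell after fWBI in white matter (-1.41 ± 0.21 on the log2 scale, edgeR adjusted p = 0.000251) and prefrontal cortex (-0.93 ± 0.18, adjusted p = 0.0155), with -0.76 ± 0.17 in hippocampus (adjusted p = 0.0534). The part of blood cells in the members' values was not tested.

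Both genes were highest in white matter. In the control animals, numbered 1 to 5, P2RY12 stood at 101, 141, 97.4, 127 and 162 CPM in white matter. In hippocampus of the same animals it stood at 82.0, 68.4, 69.1, 64.9 and 65.3 CPM. In prefrontal cortex it stood at 46.9, 42.8, 41.6, 45.1 and 52.1 CPM. No 2 regions overlapped, and white matter was above hippocampus and hippocampus above prefrontal cortex in 5 of 5 animals. The share of all genes whose regions do not overlap was not counted, so nothing is read from this. SELPLG stood at 51.7, 94.1, 48.2, 76.7 and 73.7 CPM in control white matter. It stood at 30.9, 28.5, 25.0, 23.3 and 20.1 CPM in hippocampus, and at 17.1, 19.5, 13.0, 14.2 and 15.7 CPM in prefrontal cortex. The order of regions was that of P2RY12, again in 5 of 5 animals, with a wider step between white matter and the other regions.

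**Figure D1:**
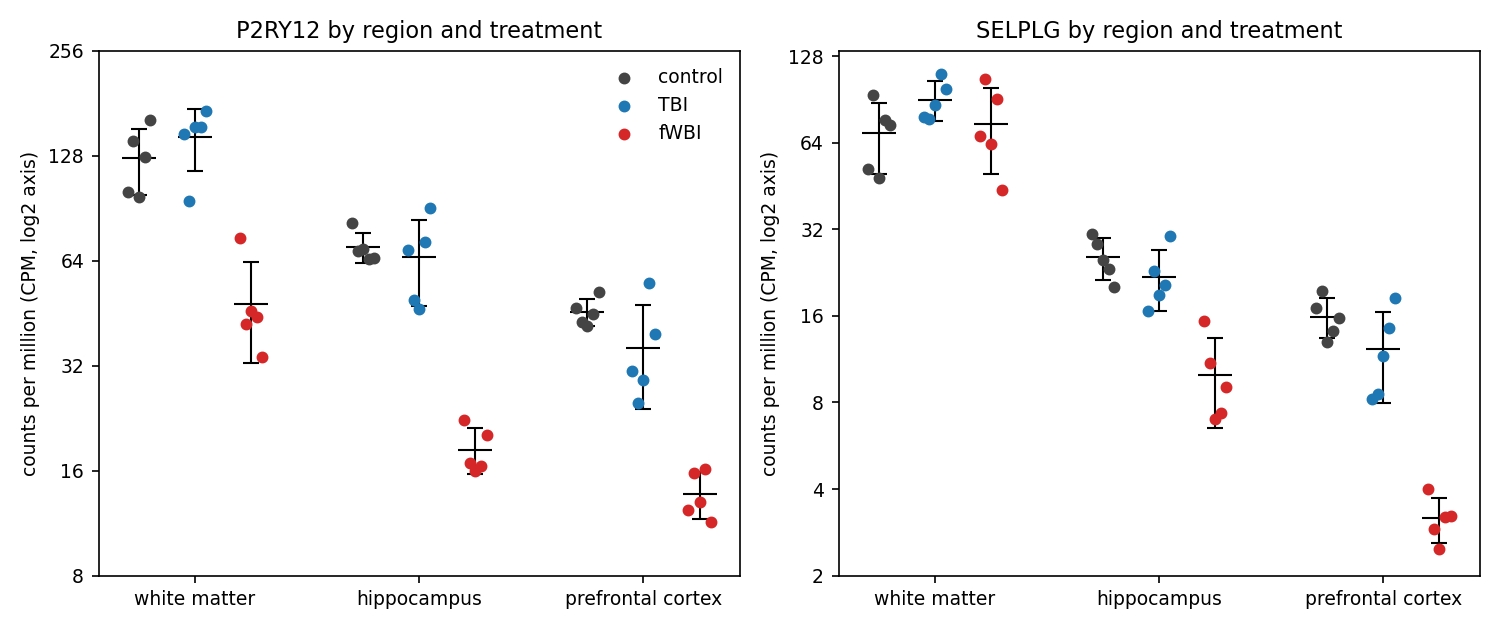
P2RY12 (left) and SELPLG (right) in each of the 45 libraries, in CPM on a log2 axis, by region and treatment; points are animals 1 to 5 from left to right within a group, and bars are the mean and SD of 5. P2RY12 after fWBI sits below all control animals in every region, whereas SELPLG after fWBI sits below them in hippocampus and prefrontal cortex and among them in white matter.

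The regional differences in control animals were tested with edgeR's quasi-likelihood test with the animal as a block and Benjamini-Hochberg adjustment over 15406 genes. White matter exceeded prefrontal cortex by 1.42 ± 0.15 on the log2 scale (SE) for P2RY12 (adjusted p = 1.93e-05), or 2.68-fold. The same difference for SELPLG was 2.08 ± 0.18 (adjusted p = 7.58e-06), or 4.22-fold. Of all genes tested, 29.6% were called higher in that comparison, so a call there is common. White matter exceeded hippocampus by 0.81 ± 0.14 for P2RY12 (adjusted p = 0.000787) and by 1.39 ± 0.17 for SELPLG (adjusted p = 7.98e-05), a comparison that called 28.2% of genes higher. Hippocampus exceeded prefrontal cortex by 0.62 ± 0.14 for P2RY12 (adjusted p = 0.0143) and by 0.69 ± 0.17 for SELPLG (adjusted p = 0.02), where 7.73% of genes were called higher. Without control animals 1 and 3, white matter exceeded prefrontal cortex by 1.61 (P2RY12) and 2.30 (SELPLG) and hippocampus by 1.11 and 1.77, all passing edgeR's test. The pair of calls between hippocampus and prefrontal cortex was lost when control animal 2, 3 or 4 was left out, with adjusted p between 0.0505 and 0.0916.

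In the TBI animals the regions had the same order, with larger steps. White matter exceeded prefrontal cortex by 2.03 ± 0.13 for P2RY12 (log2, SE; edgeR adjusted p = 2.23e-09) and by 2.90 ± 0.13 for SELPLG (adjusted p = 4.68e-11), where 37.2% of genes were called higher. It exceeded hippocampus by 1.18 ± 0.13 for P2RY12 (edgeR adjusted p = 7.5e-07) and by 2.08 ± 0.12 for SELPLG (adjusted p = 1.11e-09), where 37.9% of genes were called higher. Hippocampus exceeded prefrontal cortex by 0.85 ± 0.13 and 0.82 ± 0.13 (edgeR adjusted p = 0.000146 and 0.000254), where 18.4% were called higher. Whether the step differed from that of the control animals was tested as an interaction. The TBI effect in white matter minus that in prefrontal cortex was 0.62 ± 0.22 for P2RY12 (edgeR adjusted p = 0.225) and 0.85 ± 0.26 for SELPLG (adjusted p = 0.181). Neither passed, and 3 of 16614 genes, or 0.0181%, did. White matter minus hippocampus gave 0.38 ± 0.22 and 0.71 ± 0.25 (edgeR adjusted p = 0.219 or higher), where 0.00602% passed, and hippocampus minus prefrontal cortex gave 0.24 ± 0.22 and 0.14 ± 0.26, where 0% passed.

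After fWBI, P2RY12 was at 39.1% of control in white matter, 26.2% in the hippocampus and 29.6% in prefrontal cortex. In white matter fWBI animals 1 to 5 had 74.5, 42.1, 45.9, 44.2 and 33.9 CPM. Animal 1 was the highest of them and still under the lowest control animal, at 97.4 CPM. In hippocampus the fWBI animals had 22.4, 16.9, 16.0, 16.5 and 20.2 CPM, against a lowest control of 64.9 CPM. In prefrontal cortex they had 12.3, 15.7, 13.0, 16.2 and 11.4 CPM, against a lowest control of 41.6 CPM. The groups did not overlap in any of the 3 regions. The log2 difference from control was -1.36 ± 0.21 in white matter, -1.93 ± 0.17 in the hippocampus and -1.75 ± 0.18 in prefrontal cortex (SE, n = 5 animals per group). The white matter value was -1.54 ± 0.22 without control animals 1 and 3.

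SELPLG after fWBI differed by region. In prefrontal cortex the fWBI animals had 4.01, 2.90, 2.48, 3.20 and 3.24 CPM, all below the lowest control of 13.0 CPM and at 19.7% of the control level. In hippocampus they had 15.4, 11.0, 7.04, 7.34 and 9.05 CPM, all below the lowest control of 20.1 CPM and at 38.8% of control. In white matter they had 67.6, 106.6, 63.3, 90.9 and 43.9 CPM, a range that took in all 5 control animals. The log2 difference from control was -2.34 ± 0.22 in prefrontal cortex, -1.36 ± 0.21 in hippocampus and 0.14 ± 0.23 in white matter (SE, n = 5). The white matter value was -0.09 without control animals 1 and 3 and -0.03 without fWBI animal 2, so it has no stable sign. As the background to these counts, 4.29% of genes tested in white matter, 0.833% in the hippocampus and 1.18% in prefrontal cortex had all fWBI animals below all control animals. These contrasts chose the members, so nothing is read from where the members stand in them.

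The pair thus parted in white matter. The fWBI effect in white matter minus that in prefrontal cortex was 2.49 ± 0.28 for SELPLG (log2, SE) and 0.38 ± 0.22 for P2RY12. White matter minus hippocampus gave 1.53 ± 0.26 for SELPLG and 0.56 ± 0.22 for P2RY12. Between hippocampus and prefrontal cortex the effect differed by 0.96 ± 0.29 for SELPLG, the larger fall being in prefrontal cortex, and by -0.18 ± 0.23 for P2RY12. Within single libraries, log2 CPM of P2RY12 minus that of SELPLG averaged 0.88 in control white matter and -0.61 ± 0.58 (SD, n = 5) after fWBI. In prefrontal cortex it averaged 1.52 in control animals and 2.05 ± 0.36 after fWBI, the opposite direction. In hippocampus it averaged 1.46 in control animals and 0.92 ± 0.32 after fWBI. These differences compare each gene's ratio across groups, not the levels of the genes with each other, since transcript lengths were not used.

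**Figure D2:**
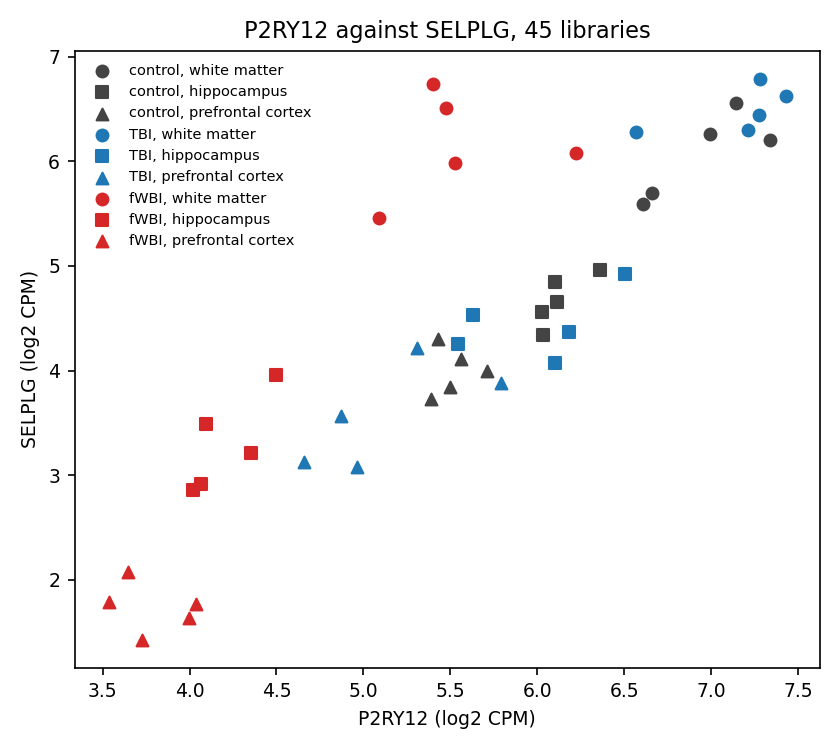
SELPLG against P2RY12 in the 45 libraries, both in log2 CPM, coloured by treatment and shaped by region. The fWBI white matter libraries lie to the left of control and TBI white matter at a like height, and the fWBI hippocampus and prefrontal cortex libraries lie to the left of and below theirs.

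The regional order of levels after fWBI kept white matter highest for both genes. Over all 9 groups, mean P2RY12 fell in the order TBI white matter (145 ± 29.5 CPM, SD, n = 5), control white matter (125.7 ± 27.2), control hippocampus (70.0 ± 7.00), TBI hippocampus (65.5 ± 18.2), fWBI white matter (48.1 ± 15.5), control prefrontal cortex (45.7 ± 4.14), TBI prefrontal cortex (36.0 ± 12.0), fWBI hippocampus (18.4 ± 2.76) and fWBI prefrontal cortex (13.7 ± 2.13). Neighbours in that order overlapped, except control white matter with control hippocampus and TBI prefrontal cortex with fWBI hippocampus. White matter after fWBI thus held P2RY12 at a level that overlapped control prefrontal cortex. Mean SELPLG fell in the order TBI white matter (90.4 ± 14.0 CPM), fWBI white matter (74.5 ± 24.5), control white matter (68.9 ± 19.0), control hippocampus (25.6 ± 4.25), TBI hippocampus (21.8 ± 5.21), control prefrontal cortex (15.9 ± 2.51), TBI prefrontal cortex (12.3 ± 4.29), fWBI hippocampus (9.96 ± 3.41) and fWBI prefrontal cortex (3.16 ± 0.561). Here the only neighbours that did not overlap were control white matter with control hippocampus and fWBI hippocampus with fWBI prefrontal cortex.

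After TBI neither gene passed the test in any region, against the same control animals as used for fWBI. P2RY12 in TBI animals 1 to 5 was 148, 94.7, 155, 155 and 172 CPM in white matter, 68.5, 49.3, 46.4, 72.5 and 90.7 CPM in hippocampus and 30.9, 25.1, 29.1, 55.2 and 39.5 CPM in prefrontal cortex. Each range overlapped that of the control animals. The log2 difference from control was 0.21 ± 0.21 in white matter (SE; edgeR adjusted p = 0.642), -0.13 ± 0.16 in hippocampus (adjusted p = 0.793) and -0.35 ± 0.17 in prefrontal cortex (adjusted p = 0.436). SELPLG was 78.7, 77.5, 86.8, 110.5 and 98.6 CPM in TBI white matter, 16.6, 22.8, 18.9, 20.4 and 30.2 CPM in hippocampus and 8.23, 8.53, 11.6, 14.5 and 18.4 CPM in prefrontal cortex. These ranges overlapped the control animals as well. Its differences were 0.40 ± 0.23 in white matter (edgeR adjusted p = 0.384), -0.27 ± 0.20 in hippocampus (adjusted p = 0.638) and -0.38 ± 0.20 in prefrontal cortex (adjusted p = 0.493). The white matter differences were smaller without control animals 1 and 3, at 0.019 for P2RY12 and 0.15 for SELPLG. For each gene 19 of 20 alternatives kept the sign. It turned with the mean of the pan-myeloid genes described below as a covariate, to -0.23 for P2RY12 and -0.38 for SELPLG.

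The number of genes called after TBI depended on the tool and the libraries. In white matter edgeR called 0.0722% of genes, which is 11 of 15235, DESeq2 called 740, 1 edgeR fit of all 45 libraries called 1736, and edgeR called 0 without control animals 1 and 3, whose neuronal levels were high. In hippocampus edgeR called 0 of 15357 genes, or 0%, with 1661 at an unadjusted p under 0.05 and 60 called by DESeq2. In prefrontal cortex edgeR called 0 of 15531, or 0%, with 1826 at an unadjusted p under 0.05 and 254 called by DESeq2. The 2 members had unadjusted p of 0.055 (P2RY12) and 0.0778 (SELPLG) in prefrontal cortex by edgeR.

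Set directly against TBI, fWBI animals had less P2RY12 in every region. The log2 difference was -1.57 ± 0.21 in white matter, -1.80 ± 0.17 in the hippocampus and -1.40 ± 0.18 in prefrontal cortex (SE). For SELPLG it was -0.25 ± 0.23, -1.10 ± 0.21 and -1.97 ± 0.22 in the same order. The groups did not overlap for P2RY12 in any region or for SELPLG in hippocampus and prefrontal cortex, where all fWBI animals lay below all TBI animals for 3.89% (white matter), 1.24% (hippocampus) and 0.554% (prefrontal cortex) of genes. The fWBI libraries are those of the contrast that chose the members, so these values carry no test either.

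Few other genes of the homeostatic state passed the test as lower after fWBI. From a list of 15 such genes, 11 were in the table by symbol. P2RY13, TMEM119, CX3CR1 and OLFML3 were not matched and were not analysed here. In fWBI white matter 4 of the 11 rose and 0 fell, with a median log2 difference of 0.48, against -0.03 over all genes, 8.82% of which were called higher. Among them TGFBR1, a receptor for TGF-beta, rose by 0.89 ± 0.19 (edgeR adjusted p = 0.00476). ENTPD1 (CD39), which degrades extracellular ATP and ADP, rose by 0.58 ± 0.18 (adjusted p = 0.0391), and the immune checkpoint gene VSIR by 0.53 ± 0.17 (adjusted p = 0.0455). Without control animals 1 and 3, 2 of the 11 rose, and ENTPD1 (0.38, adjusted p = 0.226) and VSIR (0.40, adjusted p = 0.225) were not among them.

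In fWBI hippocampus 0 of the 11 passed in either direction by edgeR's test, with a median of -0.03, where 0.527% of genes were called higher and 0.215% lower. In prefrontal cortex 1 of the 11 fell, with a median of -0.01, where 0.367% of genes were called lower. It was SLC2A5, a fructose transporter, at -0.92 ± 0.22 (adjusted p = 0.0489). CSF1R, the receptor that microglia need for survival, had differences of -0.12 ± 0.20 in white matter, 0.29 ± 0.18 in the hippocampus and 0.33 ± 0.18 in prefrontal cortex (edgeR adjusted p = 0.772, 0.583 and 0.436). GPR34, a lysophospholipid receptor, had 0.00 ± 0.24, -0.59 ± 0.14 and -0.59 ± 0.19 (adjusted p = 0.995, 0.0732 and 0.163). After TBI 0 of the 11 passed in any region.

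**Figure D3:**
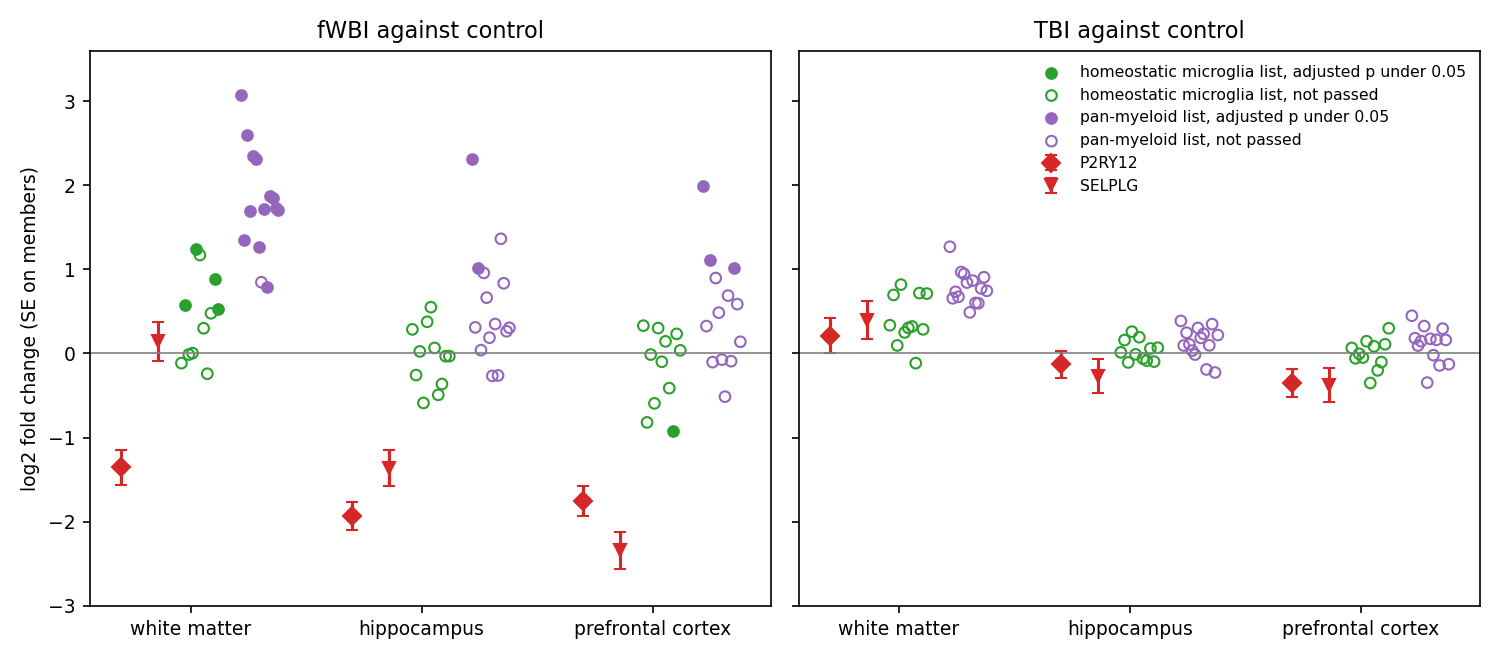
Log2 fold change against control after fWBI (left) and TBI (right) by region, for P2RY12 and SELPLG (with SE) and for each tested gene of the homeostatic microglia and pan-myeloid lists; filled points passed edgeR's test and open points did not. After fWBI the pan-myeloid genes lie above 0 in white matter while P2RY12 lies below 0 in all 3 regions.

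Most genes shared by microglia and other myeloid cells rose after fWBI in white matter, and few passed the test elsewhere. Of 18 pan-myeloid genes 14 were matched, and in fWBI white matter 13 of the 14 rose and 0 fell, with a median log2 difference of 1.72 (edgeR's test); without control animals 1 and 3, 12 of 14 rose. Among them were CD14, a co-receptor for lipopolysaccharide, at 3.08 ± 0.37 (adjusted p = 4.01e-05), CYBB, the catalytic subunit of the phagocyte NADPH oxidase, at 2.60 ± 0.23 (adjusted p = 2.88e-06), and the integrin activator FERMT3 at 2.31 ± 0.29 (adjusted p = 6.56e-05). In hippocampus 2 of 14 rose, CD14 (2.31 ± 0.25, adjusted p = 0.000177) and CYBB (1.02 ± 0.21, adjusted p = 0.0321), with a median of 0.33. In prefrontal cortex 3 of 13 tested rose, CD14, CYBB and LCP1, with a median of 0.48, where 0.805% of genes were called higher. The share of all genes called higher was 8.82% in white matter and 0.527% in hippocampus. After TBI 0 of these genes passed in any region, and the list's medians were 0.76, 0.15 and 0.16.

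Some markers of activated phagocytes and of macrophages at vessels and brain borders rose as well. Of the activated phagocyte list 11 of 14 tested genes rose in fWBI white matter, 3 of 13 in the hippocampus and 2 of 13 in prefrontal cortex, and 0 fell (edgeR). Of all genes, 8.82%, 0.527% and 0.805% were called higher in the same order of regions. GPNMB, a glycoprotein of lipid-laden macrophages, rose by 7.08 ± 0.65 in white matter (adjusted p = 3.74e-06). The scavenger receptor MSR1 rose by 3.91 ± 0.49, 2.78 ± 0.29 and 2.13 ± 0.39 in white matter, hippocampus and prefrontal cortex (edgeR adjusted p = 5.49e-05, 0.000136 and 0.0133). The beta-glucan receptor CLEC7A rose by 2.53 ± 0.42, 3.28 ± 0.51 and 3.45 ± 0.48 (adjusted p = 0.000646, 0.00445 and 0.00148). Of 7 perivascular and border macrophage genes 4 rose in white matter, 4 in the hippocampus and 3 in prefrontal cortex, among them LYZ (lysozyme) and the sialic acid receptor SIGLEC1 in each region. The mannose receptor MRC1 passed in hippocampus (0.76 ± 0.13, edgeR adjusted p = 0.00918) and had -0.16 ± 0.24 in white matter (adjusted p = 0.731). LYVE1, a hyaluronan receptor of border macrophages, had 0.12 ± 0.44 in white matter (adjusted p = 0.908). Without control animals 1 and 3 the white matter counts of these lists were 11 of 15 and 4 of 7. The summed pan-myeloid level was 199 to 394 CPM in control and 611 to 1424 CPM in fWBI white matter, and no gene of the list was at 0 in a whole group. The part of these cells in the members' values was not tested.

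Set against the pan-myeloid list, P2RY12 passed as lower after TBI in white matter and prefrontal cortex, and SELPLG in each region. The relative level was taken in each library as the member's log2 CPM minus the mean log2 CPM of the 14 list genes, and TBI and control animals were compared by an exact permutation test, two-sided, with Benjamini-Hochberg adjustment over 6 tests. With 5 animals against 5 the smallest p this test can give is 0.00794. The control animals are those of the fWBI contrast that chose the members. A choice that favoured high control values would lower TBI minus control, so these p-values are not free of that choice. In white matter the relative level of P2RY12 was 2.99 ± 0.18 in control and 2.40 ± 0.29 in TBI animals (SD, n = 5), a difference of -0.59 (exact permutation, adjusted p = 0.0238). The difference was -0.45 in prefrontal cortex (adjusted p = 0.0357) and -0.28 in hippocampus (adjusted p = 0.103), by the same exact test. For SELPLG it was -0.37 in white matter (adjusted p = 0.0238), -0.38 in hippocampus (adjusted p = 0.0357) and -0.48 in prefrontal cortex (adjusted p = 0.0476), likewise exact. In white matter neither member's own mean fell: log2 CPM was 6.95 in control and 7.15 in TBI animals for P2RY12, and 6.07 and 6.49 for SELPLG. The pan-myeloid mean there was 3.96 in control and 4.76 in TBI animals, with control animals 1 and 3 lowest at 3.41 and 3.62. The relative differences in white matter thus lie in the reference list.

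These 5 calls depend on the reference list and on single animals. With the homeostatic list in place of the pan-myeloid one all 5 were lost (exact permutation, adjusted p between 0.143 and 0.897), and the SELPLG difference in white matter became 0.011. The white matter calls held when any 1 animal was left out. The P2RY12 call there was lost without both control animals 1 and 3 (-0.51, adjusted p = 0.0643, exact permutation), while that of SELPLG held (-0.36, adjusted p = 0.0476). In prefrontal cortex the P2RY12 call was lost without control animal 1 or 5 or TBI animal 1, 2, 3 or 5, and the SELPLG call without control animal 1, 2, 3 or 5 or TBI animal 1, 2, 3 or 4. The hippocampal SELPLG call was lost without control animal 1 or 5. In these cases the exact adjusted p was between 0.0571 and 0.0857. After fWBI the relative level of P2RY12 differed from control by -3.15 in white matter, -2.50 in the hippocampus and -2.21 in prefrontal cortex. The relative level of SELPLG differed by -1.66, -1.96 and -2.74. In white matter its own log2 CPM averaged 6.07 in control and 6.16 in fWBI animals, while the pan-myeloid mean was 3.96 and 5.71. Its relative difference there thus lies in the reference list and not in a lower level of SELPLG. The fWBI libraries chose the members, so nothing is read from these relative values.

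**Figure D4:**
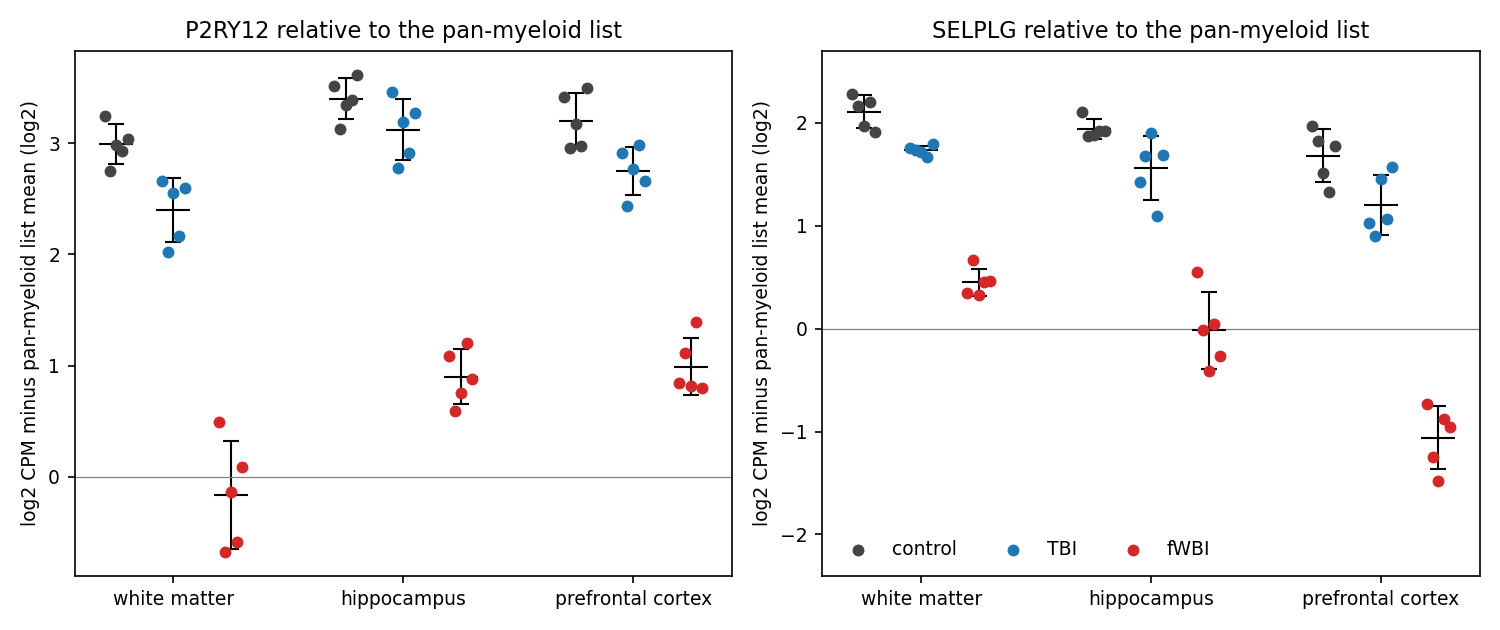
Relative level of P2RY12 (left) and SELPLG (right) in each library, as log2 CPM minus the mean log2 CPM of 14 pan-myeloid genes; points are animals and bars are the mean and SD of 5. All fWBI animals lie below all control animals in every region, and TBI animals lie below all control animals in white matter for both genes. The mean of the list itself was higher in TBI and fWBI white matter than in control white matter.

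Of the genes next to P2RY12, some were lower after fWBI in white matter and none passed in another region. In RefSeq's gene order for the rhesus assembly T2T-MMU8v2.0, P2RY12 lies inside the span of MED12L, a Mediator subunit gene, in a cluster with P2RY13, P2RY14 and GPR171. The strand setting used in counting is not given in the sources used here, so reads from P2RY12 and MED12L cannot be told apart where they overlap. MED12L was at 59.9 ± 16.7 CPM in control and 33.2 ± 4.12 CPM in fWBI white matter (SD, n = 5), a log2 difference of -0.82 ± 0.16 (edgeR adjusted p = 0.00193). In hippocampus it was at 106.7 and 102.8 CPM and in prefrontal cortex at 116.9 and 115 CPM, with differences of -0.06 ± 0.10 and -0.04 ± 0.14 (edgeR adjusted p = 0.881 and 0.922). P2RY14, a receptor for UDP-sugars, fell by 0.95 ± 0.23 in white matter (edgeR adjusted p = 0.0111), and the receptor gene GPR171 fell by 0.83 ± 0.25 (adjusted p = 0.0336). In that comparison 8.03% of genes were called lower. IGSF10, which encodes an immunoglobulin superfamily protein and lies on the other side of P2RY12, had -0.13 ± 0.33 (adjusted p = 0.859). Without control animals 1 and 3 MED12L had -0.50 ± 0.11 (edgeR adjusted p = 0.0101), and the calls of P2RY14 (-0.83, adjusted p = 0.06) and GPR171 (-0.36, adjusted p = 0.423) were lost. None of these genes passed in hippocampus or prefrontal cortex. In control animals the range of MED12L in white matter lay below its ranges in the other regions, while that of P2RY12 lay above. Whether reads of MED12L enter the P2RY12 values was not tested.

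**Figure D5:**
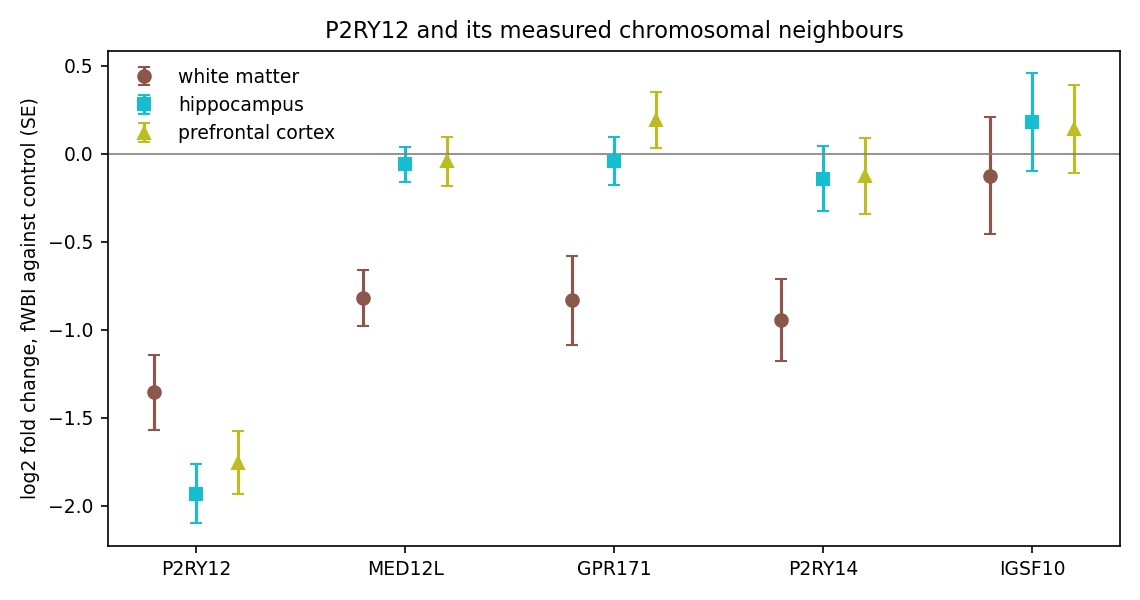
Log2 fold change of fWBI against control (with SE) for P2RY12 and 4 measured neighbours on its chromosome, by region. In hippocampus and prefrontal cortex the neighbours lie near 0 while P2RY12 is at -1.93 and -1.75.

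The neighbours of SELPLG in the same gene order that were measured and tested in hippocampus and prefrontal cortex were FICD, SART3, ISCU, CORO1C, SSH1 and SVOP. By edgeR's test 0 of these 6 passed in either region after fWBI. In white matter CORO1C, which encodes an actin-binding coronin, rose by 0.51 ± 0.10 (edgeR adjusted p = 0.00238). SVOP, which encodes a synaptic vesicle protein, differed there by -2.32 ± 0.76 (edgeR adjusted p = 0.0471). Of the 13 neuronal genes, 7 fell in that comparison, with a median of -2.19. Without the control libraries high in neuronal genes, 0 of the 13 fell, with a median of 0.20. Values of CORO1C and SVOP without those libraries are not given here. The part of neuronal RNA in the SVOP call was not tested.

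Of the partners of the pair in signalling, some passed the test in white matter and 0 in the other regions. Of 18 purinergic genes that supply, remove or relay the ligands of P2RY12, 14 were tested, and in fWBI white matter 3 rose and 1 fell (edgeR), where 16.8% of all genes were called. PIK3CG, a kinase acting downstream of Gi-coupled receptors, rose by 1.54 ± 0.27 (adjusted p = 0.000875), and P2RX4, an ATP-gated channel, by 1.17 ± 0.21 (adjusted p = 0.00113). ENTPD1, named above, was the third. NT5E (CD73), which makes adenosine from AMP, fell by 1.23 ± 0.22 (edgeR adjusted p = 0.00115). In hippocampus and prefrontal cortex 0 of 14 passed, where edgeR called 0.742% and 1.17% of all genes. For SELPLG the list held selectins, enzymes that modify PSGL-1, and the kinase SYK that relays its signal. SYK rose by 0.96 ± 0.24 in fWBI white matter (edgeR adjusted p = 0.0117), the only 1 of 6 tested to pass and a call lost without control animals 1 and 3 (0.77, adjusted p = 0.0713), and 0 of 7 passed in either of the other regions. In neither list did a gene pass after TBI in any region.

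Likeness to the pair was measured as Pearson's r of log2 CPM over 10937 named genes with a mean of at least 1 CPM, as a description. The points share libraries and depth. Over the 9 group means the genes most like P2RY12 were GPR17 (r = 0.98), IFT27 (0.97), SNORA33 (0.95), UHRF1 (0.94), RGN (0.94) and EPN2 (0.93), and SELPLG ranked 36 (r = 0.88). Those most like SELPLG were OLIG2, STK32A, PUS1 and RGS10 (r = 0.98 each), then BST1 and MASP1 (0.97), with P2RY12 at rank 461. GPR17 and OLIG2 are known from the oligodendrocyte lineage. The 9 means include the fWBI groups that chose the members, and the reason for these likenesses was not tested.

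When each library was instead taken as its deviation from its own group mean, over 45 libraries, other genes led. For P2RY12 they were TSPO (r = 0.74), FCGR1A (0.74), CYB5A (0.71), UBE2F (0.71), ADAP1 (0.70) and ATG4C (0.70). TSPO encodes the mitochondrial protein imaged as a marker of glial reaction, and FCGR1A a high-affinity receptor for IgG. For SELPLG they were SASH3 (r = 0.80), DOCK8 (0.75), TGFBR1 (0.74), NEK6 (0.71), FCER1G (0.70) and WDR81 (0.70), of which SASH3, DOCK8 and FCER1G are known from blood and myeloid cells. By this measure the members ranked 221 and 141 in each other's lists (r = 0.49). Within a region, over 15 animals, their deviations had r = 0.46 in white matter, 0.56 in the hippocampus and 0.48 in prefrontal cortex, so animals high in one for their group tended to be high in the other.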

How the data were processed

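RNA-seq of 45 macaque brain libraries was deposited as 1 table of counts per gene, which the authors made with FastQC, STAR and featureCounts, per the submitters' processing notes, which also name DESeq2. Per the labels' protocols, total RNA (RIN 7.1 to 9.3) of saline-perfused tissue was depleted of ribosomal RNA and made into stranded libraries. Genome build, annotation and the strand setting of counting: not given in the sources used here.

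From the counts, edgeR 4.0.16 (R 4.3.3) gave TMM-scaled quasi-likelihood tests, over genes kept by its default filter and with Benjamini-Hochberg adjustment at 0.05. Treatments were compared within each region over its 15 libraries. Regions were compared within each treatment with the animal as a block. An interaction model over all 45 libraries, also with the animal as a block, compared treatment effects between regions. The SE is the log2 fold change divided by the root of F. CPM used TMM-scaled totals, and log2 CPM a prior count of 2. DESeq2 1.42.0 was an alternative. The tests were checked on simulated counts.

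Members, gene lists and tests were chosen with earlier results of these data known. Other genes are named where they passed in a list, by smallest p, at most 4 per list and comparison, or by likeness; CSF1R and GPR34 as the first tested of the homeostatic list. VCAN was named by the list rule, and SALL1, SMAD3, LYVE1, IGSF10 and the neighbours of SELPLG after their values were seen. List symbols were matched to the table's Ensembl IDs. Some list members are not reported here. No 2 libraries of the same group agreed within sampling noise (90 pairs). Libraries of different groups were not compared in this way. Same-numbered animals of different groups are different animals and were not paired in the main tests. They deviated together, with r over 0.1, in 15 of 45 pairs, most often between control and fWBI prefrontal cortex (4 of 5 pairs). Regions of 1 animal deviated together, with r over 0.1, in 41 of 45 pairs.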

Additional observations from a re-analysis of the deposited data

Results flagged for a closer look

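Of 36 groups of 5 animals examined for a sample far from the others, 2 held one, both in control hippocampus and both from control animal 1. P2RY12 was 82.0 CPM in that library against 64.9 to 69.1 CPM in the other control animals. The level of SELPLG relative to the pan-myeloid list was 2.11 (log2) there against 1.87 to 1.92 in the others. Chance flags about 1 in 20 groups, which is close to the share found.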

How the results depend on the processing

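For 54 values of the members (differences, regional contrasts, interactions and relative levels) 732 alternatives were run, and 725 kept direction. A tested value was taken as unchanged where it kept its side of the threshold. The fWBI differences and interactions carry no p, so for them unchanged meant a move smaller than the pooled SD of animals within groups. By these rules 691 kept direction and were unchanged. Every fWBI difference that was negative stayed negative under each setting run. With the pan-myeloid mean as a covariate, which itself moved with fWBI, the differences from control in white matter, hippocampus and prefrontal cortex were -2.35, -2.29 and -2.13 for P2RY12 and -1.65 (a change of sign), -1.81 and -2.75 for SELPLG. In white matter against TBI they were -2.12 and -1.27, and the TBI differences from control there turned from 0.21 to -0.23 (P2RY12) and from 0.40 to -0.38 (SELPLG), neither passing the test. With the homeostatic list as reference, the relative TBI differences of P2RY12 were -0.21 in white matter and -0.40 in prefrontal cortex, and those of SELPLG 0.011, -0.31 and -0.42 in white matter, hippocampus and prefrontal cortex. Without control animals 1 and 3, an alternative chosen after seeing the data for these levels and for the gene lists, P2RY12 gave -0.51 in white matter; the cause of these changes was not tested.

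Leaving out 1 animal at a time gave 0.58 to 0.67 (P2RY12) and 0.62 to 0.76 (SELPLG) for control hippocampus against prefrontal cortex. For the relative TBI differences it gave -0.51 to -0.37 (P2RY12, prefrontal cortex), -0.47 to -0.27 (SELPLG, hippocampus) and -0.57 to -0.40 (SELPLG, prefrontal cortex).

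Counts of called genes moved more than the members did. After fWBI they were 2567 in white matter (115 to 4069 over the alternatives), 114 in hippocampus (25 to 277) and 182 in prefrontal cortex (15 to 466), and after TBI 11 (0 to 1736), 0 (0 to 60) and 0 (0 to 254). Against TBI, fWBI called 1122 (386 to 1835), 52 (18 to 135) and 45 (10 to 93).

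Same-numbered animals of different groups deviated together in 15 of 45 pairs (r over 0.1). With the replicate number as a block the fWBI difference was -1.37, -1.95 and -1.76 for P2RY12 and 0.14, -1.39 and -2.35 for SELPLG, in the order above, and the block changed no call of a member. It moved the count of called genes to 76 in hippocampus and 293 in prefrontal cortex after fWBI, and to 0 in white matter and 56 in prefrontal cortex after TBI.

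The lowest library held 27 counts of SELPLG, so counting error weighs most on its values in fWBI prefrontal cortex. The SD of log2 CPM between animals was nevertheless smaller there (0.24) than in fWBI hippocampus (0.45) or fWBI white matter (0.49). Genes unmatched by symbol limit the lists.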

Other observations

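Genes known to set or maintain the microglial state were measured from a list of 15, all matched, of which 14 were tested in white matter and hippocampus and 13 in prefrontal cortex. In fWBI white matter 7 rose and 0 fell by edgeR's test, with a median log2 difference of 0.65. Of all genes 8.82% were called higher and 8.03% lower in that comparison. The transcription factors RUNX1 and SPI1 (PU.1) rose by 2.32 ± 0.35 and 1.73 ± 0.32 (SE; edgeR adjusted p = 0.000255 and 0.00134). NRROS, which anchors latent TGF-beta on microglia, rose by 1.39 ± 0.22 (edgeR adjusted p = 0.000498), and the TGF-beta receptor gene TGFBR2 by 1.24 ± 0.21 (adjusted p = 0.000729). SMAD3, which relays TGF-beta signals, had 0.23 ± 0.24 (adjusted p = 0.6). Without control animals 1 and 3, 6 of 14 rose. In hippocampus 0 of 14 passed, with a median of 0.09, where 0.527% of all genes were called higher and 0.215% lower. In prefrontal cortex RUNX1 alone of 13 rose, by 2.42 ± 0.39 (edgeR adjusted p = 0.00537), where 0.805% of all genes were called higher. SALL1, a transcription factor that marks microglia among macrophages, had -0.24 ± 0.25, -0.49 ± 0.29 and -0.41 ± 0.33 in white matter, hippocampus and prefrontal cortex (edgeR adjusted p = 0.577, 0.557 and 0.619). After TBI 0 of these genes passed in any region.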
